A study of Mus musculus with 12 samples.

Results

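Gene expression was compared between Pbx mutant and control motor neurons of the thoracic spinal cord, using all 130 genes that the authors' thoracic mutant table lists out of 205 different genes in their 3 tables. The motor neurons came from E12.5 mouse embryos of highly mixed C57BL/6 strain, from cords freed of dorsal root ganglia and dissociated, and were sorted by Hb9::GFP, a fluorescent reporter named for the motor neuron gene Hb9 that both genotypes carried. The 3 control libraries, A, B and C, were labelled control littermate, and the 3 mutant libraries, A, B and C, carried the genotype PbxMNdelta. The sources used here do not name the alleles of PbxMNdelta or the driver that acts on them. The series text counts 9 pooled controls and 9 mutants without dividing them over libraries, so the p-values below measure the spread between libraries, which may be technical.

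Pbx proteins are homeodomain factors of the TALE class that bind DNA together with Hox proteins. Hox proteins assign motor neurons to columns along the cord, and each column sends axons to its own target. At thoracic levels the hypaxial column reaches the body wall muscles, the preganglionic column reaches sympathetic ganglia, and the median column reaches the muscles along the spine. The lateral column, which innervates the limbs, lies at limb levels.

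The values are normalized counts, that is gene counts that the authors divided by 1 factor per library. If the smallest step between values is 1 read, the listed genes held 71779 to 81370 reads in the control libraries and 50690 to 67319 in the mutant libraries. Library totals were not analysed here. Differences are mutant minus control on the log2(normalized count + 0.5) scale, with the standard error (SE) and adjusted p of limma's test over the 130 genes. The scale understates changes of genes with few reads.

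The authors had already called these genes on the same libraries, at an adjusted p under 0.05 except for Galnt13 at 0.0509 in the authors' deposited table. Of the 16235 genes that the deposited p-values imply were tested, the table lists 0.801%. A pass in the test below therefore repeats a selection and is no independent evidence. Limma called 123 of 130 genes, 94.6%, with 98 lower in the mutant (75.4% of the table) and 25 higher (19.2%). The control and mutant libraries did not overlap for 127 genes, 97.7%. Since most listed genes are lower, a gene list in which most members fell follows the table's background.

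None of the 8 defining motor neuron markers looked for is in the thoracic table, so the identity of the sorted cells could not be checked from it. Of the progenitor and glial markers 1 of 26 was listed, Nes, and of the mesenchyme and muscle markers 2 of 28, Postn and Col2a1. The summed level of Postn and Col2a1 ran from 87.6 to 136.2 normalized counts in control libraries and from 38.8 to 47.1 in mutant libraries. None of the 20 dorsal root ganglion, 22 blood and endothelial or 40 interneuron markers was listed. These names leave out Olig3, a factor of dorsal cord progenitors, which was listed. Its mean was 55.5 normalized counts in controls and 17.1 in mutants. The proneural factor Neurod4, also outside these names, was listed with a difference of -1.08. The marker counts therefore do not cover every listed gene known from other cells. The part that other cells had in any result was not tested. Mutant library B held the lowest value of its group for 78 of the 130 genes, mutant C the highest of its group for 70, and control C the highest of its group for 65.

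The median listed difference was -0.67, and centring every library on its median over the listed genes moved it to 0.04, a shift of 0.71. The median of a mostly falling list belongs to a falling gene, so this centring by its construction enlarges rises and turns small falls positive. A reversal, or a rise that passes only under it, is therefore no evidence about a gene. The falls of 39 genes turned positive and are named below as reversed by the centring. Another 39 falls kept their sign but lost their call under it, among them Tll1 (-0.97, limma adjusted p = 0.0796), Slc4a4 (-1.04, 0.0813), Syt2 (-0.54, 0.0753), H19 (-0.53, 0.11), Cacna1e (-0.33, 0.165), Met (-0.16, 0.571) and Lifr (-0.07, 0.722). The others reported below with a lost call were Gm10801, Gm13404, Tanc1, Ppl, Arhgap36, Lix1, Rbm20, Dkk3, Col2a1, Neurod4, Sncg, Syt17, Sall3, Pappa, Doc2b, Fam101b, Slc35f2, Ldb2, Dgkb, Hlf, Tmtc1, Gsg1l, Chrm2, Cdkl2, Nr4a3, Ston2, Ezr, Tnfrsf19, Rxra, Hfm1 and Megf11. Of the 98 lower calls 25 remained under the centring.

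**Figure D1:**
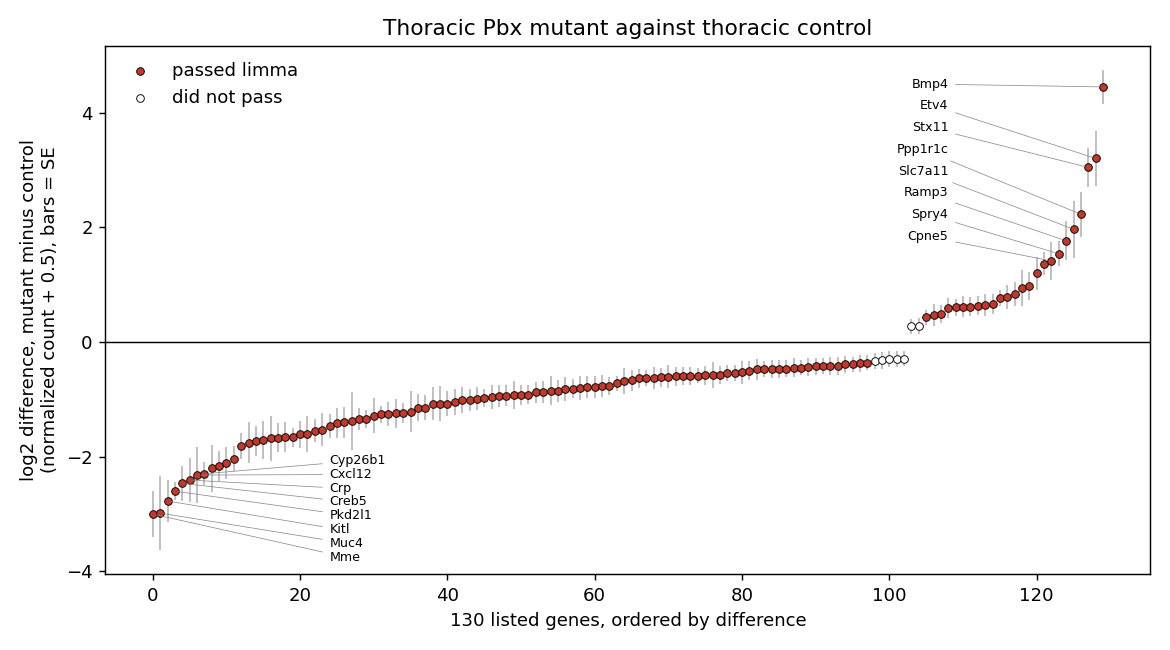
Log2 differences (mutant minus control, normalized count + 0.5) of the 130 listed thoracic genes in order, with SE bars; filled points passed limma and open points did not. Falls reach -3.00 (Mme, with Muc4 at -2.98) and rises reach 4.45 (Bmp4), and centring on the median of the list turns 39 of the smaller falls positive.

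Among genes that mark the thoracic motor columns, Kitl, Nos1 and Etv1 fell by more than the median listed gene, Zeb2, Ebf2 and Mecom fell by less than it, and Ebf1 did not pass. Nos1, the neuronal nitric oxide synthase, which preganglionic neurons make, read 522.9, 475.0 and 649.3 in the controls against 170.2, 107.7 and 127.7 in the mutants (libraries A, B and C in this order, here and below). Every control value was more than double the highest mutant value. The difference of Nos1 was -2.03 (SE 0.21, limma adjusted p = 0.00067). Kitl, the ligand of the receptor Kit, read 506.3, 548.5 and 1228 in the controls against 109.1, 76.9 and 125.7 in the mutants. Control C stood apart at the top, and the lowest control was still far above the highest mutant. Kitl differed by -2.77 (SE 0.36, limma adjusted p = 0.00108). In these bulk libraries, fewer cells of a column and less RNA per cell cannot be told apart.

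Of the hypaxial list 4 of 6 names were listed, of which Kitl, Etv1 and Ebf2 fell and Ebf1 did not pass. The ETS factor Etv1 read 153.5, 106.3 and 112.3 in the controls against 52.4, 43.9 and 36.8 in the mutants, with a difference of -1.47 (SE 0.21, limma adjusted p = 0.00127). Its level was lower in all 3 mutant libraries than in any control. Etv1 shares 1453 bases at 98.2% identity with the annotated gene Gm5454, so its count is uncertain. The helix-loop-helix factor Ebf2 read 642.2, 786.4 and 734.7 in the controls against 458.1, 488.9 and 451.7 in the mutants and fell by 0.62 (SE 0.14). Its relative Ebf1 read 1834, 1897 and 2047 in the controls against 1470.2, 1599.5 and 1664 in the mutants, a difference of -0.29 (SE 0.14, limma adjusted p = 0.071). Both turned positive under the centring.

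Of the preganglionic list 3 of 10 names were listed, Nos1, Etv1 and the zinc finger factor Zeb2. All 3 fell, a direction shared with most of the table. Zeb2 read 1926, 2209 and 2580.4 in the controls against 1397, 1323 and 1608 in the mutants. Its difference of -0.63 (SE 0.17) was reversed by the centring. The median column list gave 3 of 8 names, of which Ebf2 and the zinc finger factor Mecom fell and Ebf1 did not pass. Mecom read 1062, 1117 and 1195 in the controls against 630.0, 738.2 and 907.4 in the mutants. Its difference of -0.58 (SE 0.17) was reversed by the centring, and its call was lost without mutant A, at -0.46.

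The lateral column and limb pool list gave 4 of 22 names, 2 that rose and 2 that fell. Etv4, known from motor pools of the limb as an ETS factor, read 1.95, 9.08 and 4.49 in the controls against 30.5, 51.6 and 56.2 in the mutants. All mutant libraries exceeded the highest control. Its difference was 3.20 (SE 0.49, limma adjusted p = 0.00154) and rested on 16 control reads if 1 step is 1 read, and it was 2.83 to 3.34 with pseudocounts of 2 and 0.1. Cdh12, a classical cadherin, read 375.3, 327.8 and 334.8 in the controls against 598.6, 547.1 and 628.4 in the mutants and rose by 0.77 (SE 0.14). Npr3, the clearance receptor for natriuretic peptides, read 58.6, 81.7 and 50.6 in the controls against 21.8, 13.2 and 28.6 in the mutants. It fell by 1.60 (SE 0.31), beside Etv1. No Hox gene was listed, and of 18 TALE names Pbx3 was the one listed.

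Pbx3 itself was lower in the mutant. It read 3256, 3150.3 and 3714 in the controls against 2349.8, 2448 and 1949.7 in the mutants, with group means of 3373 ± 299.7 (control) against 2249 ± 263.8 (mutant; SD, n = 3). The groups did not overlap, as for 127 of the 130 listed genes (97.7%). The difference of -0.59 (SE 0.16, limma adjusted p = 0.0107) was reversed by the centring. The level does not check the genotype labels, because which Pbx genes or exons were removed is not stated.

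**Figure D2:**
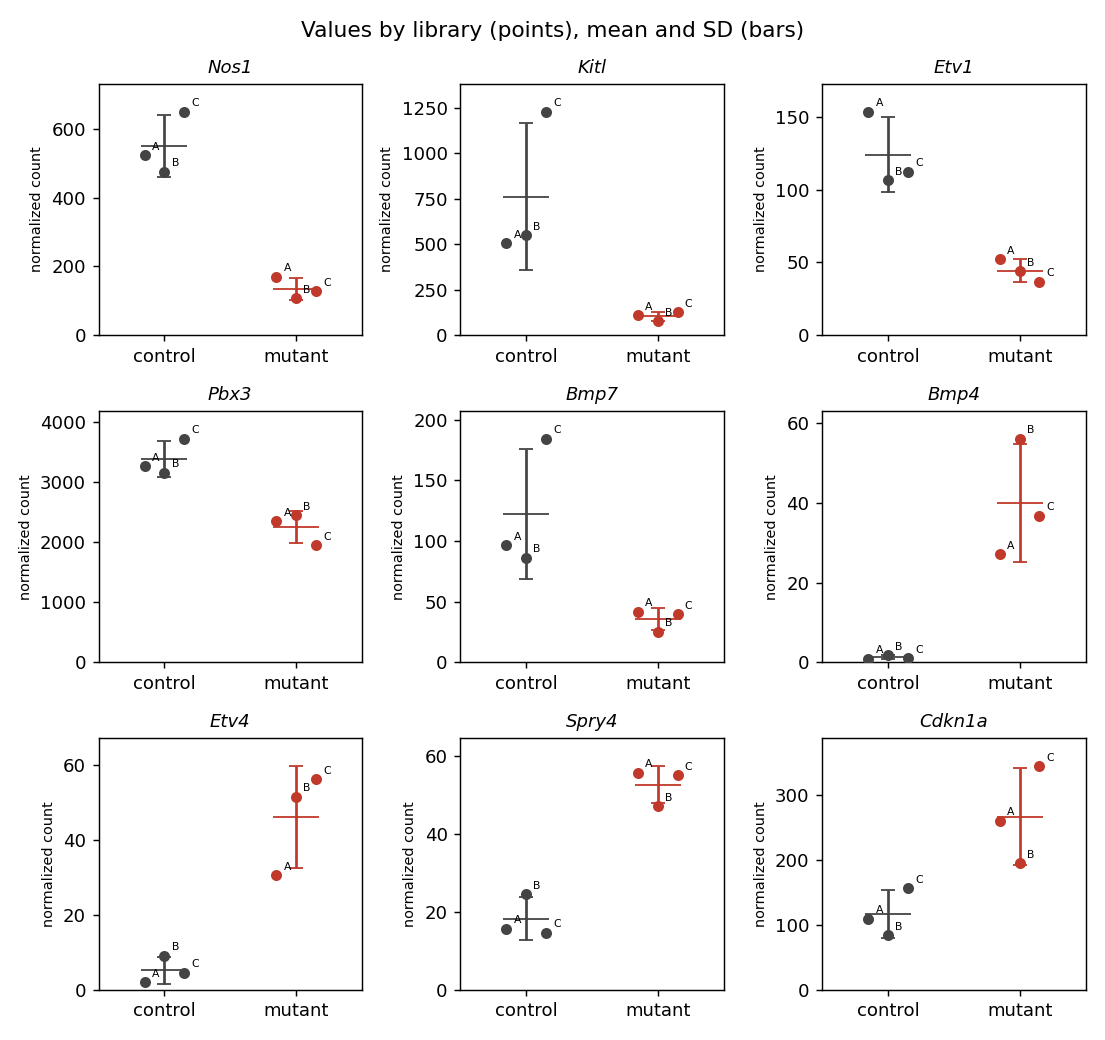
Normalized counts of 9 listed genes in the 3 thoracic control and 3 thoracic mutant libraries (points, letters A to C), with the mean and SD of each group (bars). The groups do not overlap in any panel, as for 127 of the 130 listed genes (97.7%). Nos1 spans 475.0 to 649.3 in controls and 107.7 to 170.2 in mutants. Of these 9 genes Pbx3 alone changes direction with the median centring.

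Hox and Pbx proteins together can bind sites with the letters TGATNNAT, and Meis and Prep proteins can bind TGACAG, so both strings were looked up on both strands in RefSeq promoter windows (build GRCm38.p6, 250 bases before to 50 after a gene start). Of the 130 listed genes 92 had a window. TGATNNAT was in 7.53% of the 93 windows of genes that fell, in 0 of 19 windows of genes that rose and in 8.85% of all 32851 windows of that table. For TGACAG the shares were 14.0%, 15.8% and 19.2% in the same order. Neither share among falling genes was above that of all windows, and a match of letters is no record of binding. The genes that fell and hold TGATNNAT were Cacna2d1, Etv1, Kcnip4, Lifr, Mecom, Sncg and Syt2, with the string at or after the gene start in Cacna2d1 and Syt2. Stretches of the other 5, chosen after their values were seen, are shown because they hold the string before the start, Etv1 and Mecom being factors of motor columns. Capitals mark the string, read on the gene's strand or, for Etv1, as its reverse complement. They lie at chr12:38783567-38783614 (+ strand) for Etv1, chr5:49285714-49285761 (- strand) for Kcnip4, chr15:7140292-7140325 (+ strand) for Lifr, chr3:30509763-30509810 (- strand) for Mecom and chr14:34374858-34374905 (- strand) for Sncg.
Etv1: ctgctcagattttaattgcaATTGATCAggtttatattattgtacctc
Kcnip4: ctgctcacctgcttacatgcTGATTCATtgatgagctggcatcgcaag
Lifr: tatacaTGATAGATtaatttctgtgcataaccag
Mecom: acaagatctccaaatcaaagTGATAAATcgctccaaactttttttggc
Sncg: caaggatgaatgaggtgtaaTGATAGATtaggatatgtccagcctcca

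The string began 31 bases before the gene start in Mecom, 82 in Kcnip4, 124 in Etv1, 216 in Sncg and 244 in Lifr. The upstream bases of Kitl and Bmp4, the ligand genes with the largest fall and rise, hold neither string and are shown for that reason, at chr10:100015571-100015820 (+ strand) and chr14:46390670-46390919 (- strand).
Kitl: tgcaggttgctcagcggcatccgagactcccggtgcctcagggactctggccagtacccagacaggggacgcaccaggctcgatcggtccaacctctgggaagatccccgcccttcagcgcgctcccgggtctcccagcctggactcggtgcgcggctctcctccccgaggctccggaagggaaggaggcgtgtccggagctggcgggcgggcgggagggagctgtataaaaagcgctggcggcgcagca
Bmp4: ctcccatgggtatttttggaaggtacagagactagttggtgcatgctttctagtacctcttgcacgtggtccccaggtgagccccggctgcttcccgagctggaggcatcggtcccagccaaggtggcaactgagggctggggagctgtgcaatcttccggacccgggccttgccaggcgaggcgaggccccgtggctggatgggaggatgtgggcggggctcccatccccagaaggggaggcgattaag

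Transcription factor families gave 15 listed genes, of which 12 fell, 2 rose, Etv4 among them, and Ebf1 did not pass. Creb5, a CREB family factor, read 319.6, 315.1 and 392.1 in the controls against 70.7, 37.4 and 86.9 in the mutants, the largest fall of a factor at -2.47 (SE 0.31). Klf5, a Krüppel-like factor, read 60.6, 54.5 and 57.3 in the controls against 19.2, 22.0 and 26.6 in the mutants. Its control values lie close together, and each is more than double every mutant value. The proneural factor Neurod4 fell by 1.08 (SE 0.31). The Krüppel-like factor Klf11 fell by 0.47 (SE 0.15) and was reversed by the centring.

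Regulators outside that list fell as well. Olig3, a helix-loop-helix factor of dorsal cord progenitors, read 51.8, 66.3 and 48.3 in the controls against 17.5, 15.4 and 18.4 in the mutants. It fell by 1.66 (SE 0.17) with groups far apart. Sall3, a zinc finger factor, fell by 1.01 (SE 0.19), the LIM domain binding protein gene Ldb2 fell by 0.93 (SE 0.19) and Hlf, a leucine zipper factor of the PAR family, fell by 0.93 (SE 0.25). Tead1, a factor of the Hippo pathway, differed by -0.53 (SE 0.20) and was reversed by the centring. Its call was lost without any 1 of 5 libraries.

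All 5 listed members of the 29 activity-linked names fell, namely Creb5, Nr4a3, Egr1, Jun and Klf6, and of these Egr1, Jun and Klf6 were reversed by the centring. Early response genes, of which this list holds several, can respond to cell dissociation, and its part in these falls was not tested. The zinc finger factor Egr1 read 1115, 1026 and 1438 in the controls against 794.9, 735.0 and 807.3 in the mutants, a difference of -0.60 (SE 0.17). The nuclear receptor Nr4a3 read 127.1, 209.8 and 160.7 in the controls against 89.9, 85.7 and 103.2 in the mutants and fell by 0.81 (SE 0.21). Control C was the highest library for Egr1 and control B for Nr4a3. Jun, of the AP-1 complex, differed by -0.45 (SE 0.17), and Klf6 by -0.39 (SE 0.15). Their calls were each lost without any 1 of 5 libraries, at -0.49 to -0.31 and -0.43 to -0.33.

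Secreted signals of the BMP and TGF-beta families moved in opposite directions, with 3 that fell and 1 that rose. The ligand gene Bmp4 read 0.977, 1.82 and 1.123 in the controls against 27.0, 56.0 and 36.8 in the mutants. Its controls held 4 reads in all if 1 step is 1 read, and every mutant library was far above them. No other listed gene rose as much, at 4.45 (SE 0.30, limma adjusted p = 7.03e-05) and 3.62 to 4.81 with pseudocounts of 2 and 0.1. Bmp7, a related ligand, read 96.8, 86.3 and 184.2 in the controls against 41.9, 25.3 and 39.9 in the mutants and fell by 1.71 (SE 0.33). Its control C was the highest library, and the groups did not overlap, as for most of the table. The ligand Tgfb2 differed by -0.58 (SE 0.16) and was reversed by the centring. Tll1, a tolloid family protease that can cleave the BMP antagonist chordin, read 45.0, 57.2 and 137.1 in the controls against 24.4, 18.7 and 22.5 in the mutants. Its control C was more than double the other controls, and it fell by 1.68 (SE 0.39).

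FGF signalling genes were represented by Etv4, Spry4 and Spry2. Spry4, a Sprouty inhibitor of FGF signalling, read 15.6, 24.5 and 14.6 in the controls against 55.8, 47.2 and 55.2 in the mutants and rose by 1.54 (SE 0.22). Its relative Spry2 read 355.8, 339.6 and 365.1 in the controls against 236.5, 226.3 and 243.2 in the mutants. The groups of Spry2 were tight and apart. Its difference of -0.59 (SE 0.13) was reversed by the centring, which by its construction reverses falls of this size.

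Retinoid genes gave Cyp26b1 and Rxra, 2 of 19 names, and both fell, a direction shared with most of the table. Cyp26b1, the enzyme that degrades retinoic acid, read 238.5, 168.0 and 191.0 in the controls against 43.6, 31.9 and 45.0 in the mutants, with a difference of -2.30 (SE 0.20, limma adjusted p = 0.000338). The lowest control was more than 3 times the highest mutant. Rxra, a retinoid receptor, read 114.4, 149.8 and 167.4 in the controls against 86.4, 91.2 and 72.6 in the mutants and fell by 0.77 (SE 0.19).

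Growth factor and chemokine genes gave 4 listed genes, Kitl, Cxcl12, Met and Lifr. All 4 fell, as did 98 of the 130 listed genes. The chemokine Cxcl12 read 45.0, 37.2 and 24.7 in the controls against 2.62, 9.89 and 10.2 in the mutants. Its lowest control stayed above its highest mutant, at a difference of -2.32 (SE 0.49). Met, the receptor of hepatocyte growth factor, read 841.5, 702.0 and 925.7 in the controls against 548.8, 401.0 and 405.7 in the mutants and fell by 0.87 (SE 0.19). Lifr, the receptor of leukemia inhibitory factor, fell by 0.78 (SE 0.19), with group means of 1367 ± 142.4 (control) against 803.4 ± 161.1 (mutant; SD, n = 3). Pappa, a protease that releases insulin-like growth factors from their binding proteins, fell by 0.99 (SE 0.20). The imprinted RNA H19 read 170.1, 192.5 and 105.6 in the controls against 65.4, 53.8 and 73.6 in the mutants and fell by 1.24 (SE 0.25).

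Genes of the nitric oxide route to cyclic GMP were listed at 2 steps. Beside the fall of Nos1, Gucy1a3, a subunit of the nitric oxide receptor guanylyl cyclase, read 121.2, 82.6 and 59.5 in the controls against 182.4, 116.5 and 200.3 in the mutants. It rose by 0.94 (SE 0.31), but control A exceeded mutant B, and the call was lost without any 1 of 4 libraries at 0.69 to 0.93. Gucy1a3 is named Gucy1a1 in newer annotation.

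The 3 listed peptide genes fell, as did 98 of the 130 listed genes. Mme, the peptide-degrading enzyme neprilysin, read 164.2, 154.4 and 246.0 in the controls against 38.4, 12.1 and 24.5 in the mutants, a difference of -3.00 (SE 0.41). With a pseudocount of 0.1 the difference of Mme was -3.03, smaller than that of Muc4 at -3.30. Cartpt, the precursor of the CART peptide, read 75.3, 56.3 and 88.7 in the controls against 27.9, 23.1 and 22.5 in the mutants and fell by 1.55 (SE 0.20). The lowest control value was more than double the highest mutant value for both. The granule protein gene Scg2 read 584.5, 526.7 and 745.9 in the controls against 479.0, 307.6 and 466.0 in the mutants, a difference of -0.58 (SE 0.23) that was reversed by the centring. Trhde, an enzyme that degrades thyrotropin-releasing hormone, differed by -0.39 (SE 0.13) and was also reversed.

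Receptors for peptides and transmitters differed in direction. Ramp3, an accessory protein of calcitonin-family receptors, read 26.4, 29.97 and 34.8 in the controls against 64.6, 100.0 and 173.7 in the mutants, and rose by 1.77 (SE 0.34) with a wide mutant range. The prokineticin receptor Prokr2 read 67.4, 45.4 and 60.7 in the controls against 144.8, 128.5 and 174.7 in the mutants and rose by 1.37 (SE 0.20). The muscarinic acetylcholine receptor Chrm2 read 273.7, 173.5 and 164.0 in the controls against 132.6, 85.7 and 116.5 in the mutants. It fell by 0.85 (SE 0.26), with its call lost without mutant B at -0.67. Gsg1l, an auxiliary protein of AMPA receptors, fell by 0.85 (SE 0.19).

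All 5 listed ion channel genes fell, a direction shared with most of the table and reversed by the centring for Cacna2d1 and Kcnb2. Pkd2l1, a polycystin channel, read 52.8, 57.2 and 52.8 in the controls against 7.85, 7.69 and 10.2 in the mutants. Both groups were tight and far apart, at a difference of -2.60 (SE 0.16, limma adjusted p = 7.03e-05). Kcnip4, an accessory subunit of A-type potassium channels, read 232.6, 265.2 and 407.8 in the controls against 87.3, 74.7 and 88.9 in the mutants and fell by 1.81 (SE 0.23). Cacna1e, the pore of R-type calcium channels, read 2108, 1978 and 2333 in the controls against 1133, 753.6 and 1294 in the mutants and fell by 1.05 (SE 0.22). Mutant B was the lowest library for both. The calcium channel subunit Cacna2d1 differed by -0.54 (SE 0.14) and the potassium channel Kcnb2 by -0.47 (SE 0.14).

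Among carriers, 2 fell and 1 rose. The bicarbonate transporter Slc4a4 read 108.5, 95.4 and 159.5 in the controls against 40.1, 50.5 and 20.4 in the mutants and fell by 1.76 (SE 0.35). The cystine transporter Slc7a11 read 13.7, 18.2 and 4.49 in the controls against 41.9, 59.3 and 30.7 in the mutants and rose by 1.97 (SE 0.49). It was the one listed gene of 24 amino acid stress names. The carrier Slc35f2 read 230.7, 183.4 and 185.4 in the controls against 89.0, 89.0 and 132.8 in the mutants and fell by 0.96 (SE 0.21).

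Synapse and vesicle genes gave 9 listed genes, of which 5 fell, 3 rose and Syt1 did not pass. Sytl2, a Rab27 effector, read 51.8, 79.9 and 101.1 in the controls against 26.2, 19.8 and 21.5 in the mutants and fell by 1.72 (SE 0.26). Syt2, a calcium sensor of fast release, read 378.3, 404.1 and 485.3 in the controls against 226.0, 138.4 and 172.7 in the mutants and fell by 1.26 (SE 0.21). Its paralog Syt1 did not pass. Syt1 read 2539, 2390.2 and 2272 in the controls against 2821, 2857 and 3011 in the mutants. Its groups did not overlap, as for most of the table. The difference of 0.27 (SE 0.13, limma adjusted p = 0.0763) passed under the centring. Syt17 fell by 1.07 (SE 0.22) and the calcium sensor Doc2b fell by 1.01 (SE 0.23). Rab3ip, an exchange factor of Rab proteins, differed by -0.45 (SE 0.13) and was reversed by the centring.

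The rises in this list were Stx11, Cpne5 and Unc13c. The syntaxin Stx11 read 0.977, 1.82 and 1.123 in the controls against 8.73, 14.3 and 22.5 in the mutants, with 4 control reads in all if 1 step is 1 read. Its difference of 3.05 (SE 0.34) was 2.30 to 3.38 with pseudocounts of 2 and 0.1. The copine Cpne5 read 58.6, 58.1 and 69.7 in the controls against 126.5, 125.2 and 288.2 in the mutants and rose by 1.41 (SE 0.33), with mutant C apart from the other two. Unc13c, of the Munc13 family of vesicle priming proteins, rose by 0.67 (SE 0.17).

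Adhesion genes gave 2 rises, 2 falls and Fat1, which did not pass. Pcdh19, a protocadherin, read 2226, 2139.6 and 2028 in the controls against 2937, 2985 and 2688 in the mutants and rose by 0.43 (SE 0.13), beside the rise of Cdh12. Fat1, a giant cadherin, differed by 0.28 (SE 0.14). The contactin Cntn2 read 1047, 1063 and 895.3 in the controls against 698.9, 794.3 and 751.1 in the mutants. Its difference of -0.42 (SE 0.14) and that of the immunoglobulin protein Cadm1, -0.37 (SE 0.15), were reversed by the centring. The guidance gene Ntng1, encoding netrin-G1, read 556.1, 599.4 and 698.8 in the controls against 414.5, 319.7 and 438.4 in the mutants, a difference of -0.67 (SE 0.18). The netrin receptor Unc5c read 1849, 1654 and 1939 in the controls against 1258, 1157 and 1326 in the mutants, a difference of -0.54 (SE 0.14). Both were likewise reversed.

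Extracellular and secreted proteins gave 7 listed genes, of which 6 fell and Adamts5 rose. Adamts9, a secreted metalloprotease, read 271.7, 224.3 and 444.9 in the controls against 74.2, 57.1 and 69.5 in the mutants and fell by 2.17 (SE 0.27). Its relative Adamts5 read 132.0, 145.3 and 84.3 in the controls against 257.4, 253.8 and 191.1 in the mutants and rose by 0.98 (SE 0.24). Groups of both were apart, as for most of the table. Crp, a pentraxin, read 48.9, 76.3 and 98.9 in the controls against 13.1, 20.9 and 8.17 in the mutants and fell by 2.41 (SE 0.38). The mucin Muc4 read 3.91, 21.8 and 27.0 in the controls against 1.75, 1.10 and 1.02 in the mutants. It rested on 4 mutant reads if 1 step is 1 read, so its difference of -2.98 (SE 0.65) was -2.29 to -3.30 with pseudocounts of 2 and 0.1.

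The matrix genes Postn and Col2a1 are also the 2 listed mesenchyme markers. Postn read 26.4, 38.1 and 41.6 in the controls against 8.73, 9.89 and 5.11 in the mutants and fell by 2.12 (SE 0.28). Col2a1 read 88.0, 98.1 and 46.1 in the controls against 38.4, 31.9 and 33.7 in the mutants and fell by 1.08 (SE 0.29). Nov, a matricellular protein named Ccn3 in newer annotation, read 103.6, 59.9 and 192.1 in the controls against 30.5, 18.7 and 20.4 in the mutants and fell by 2.20 (SE 0.41). Its control values spread more than 3-fold and stayed above the mutants. Dkk3, a secreted Dickkopf-family protein, fell by 1.14 (SE 0.21).

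Genes of cell death and cell cycle arrest differed in direction. Hrk, which promotes cell death, read 527.8, 525.8 and 556.1 in the controls against 205.1, 121.9 and 215.6 in the mutants and fell by 1.61 (SE 0.23). Cdkn1a, an inhibitor of cyclin-dependent kinases, read 109.5, 83.5 and 156.2 in the controls against 260.0, 194.5 and 344.4 in the mutants. It rose by 1.20 (SE 0.29), with a gap between the groups smaller than the range within either. The receptor Tnfrsf19 read 151.5, 190.7 and 138.2 in the controls against 75.0, 101.1 and 103.2 in the mutants and fell by 0.78 (SE 0.20).

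Second messenger genes gave 2 falls, Nos1 and Dgkb, and 2 rises, Gucy1a3 and Ppp1r1c, and cytoskeleton genes 3 falls and 2 genes that did not pass. Ppp1r1c, an inhibitor of protein phosphatase 1, read 36.2, 27.2 and 20.2 in the controls against 150.1, 71.4 and 200.3 in the mutants and rose by 2.23 (SE 0.39). Arhgap36, of a GTPase-activating family, read 181.8, 136.2 and 274.1 in the controls against 58.5, 76.9 and 103.2 in the mutants and fell by 1.28 (SE 0.31). The Ras association gene Rassf4 read 251.2, 218.9 and 201.1 in the controls against 97.7, 86.8 and 94.0 in the mutants and fell by 1.26 (SE 0.15). Groups of these 3 genes did not overlap, as for 127 of the 130 listed genes. Dgkb, a diacylglycerol kinase, fell by 0.92 (SE 0.18), as did the kinases Cdkl2 (-0.88, SE 0.18) and Cit (-0.68, SE 0.23). The membrane linkers Ezr (-0.81, SE 0.21) and Msn (-0.60, SE 0.20) fell, and Cit and Msn were reversed by the centring. Peak1, a pseudokinase of the cytoskeleton, rose by 0.61 (SE 0.15). The intermediate filament gene Nes, also a progenitor marker, read 529.8, 712.0 and 551.6 in the controls against 409.2, 437.2 and 438.4 in the mutants, a difference of -0.47 (SE 0.16) that was reversed by the centring.

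Of the 45 genes in none of the lists, 37 fell, 6 rose and 2 did not pass, against 98, 25 and 7 of all 130. Those with a known role were grouped with other genes above after their values were seen. Further falls among them were those of Man1a, a Golgi mannosidase (-1.67, SE 0.25), Fam135b (-1.66, SE 0.26), the synaptic scaffold Tanc1 (-1.41, SE 0.26), the cytoskeletal linker Ppl (-1.34, SE 0.19) and the splicing factor Rbm20 (-1.24, SE 0.17). Lix1, which shares 459 bases at 100% identity with Gm11578 and is uncertain, fell by 1.22 (SE 0.36), and gamma-synuclein, Sncg, fell by 1.15 (SE 0.24). Fam101b (Rflnb in newer annotation), Tmtc1, Ston2, Hfm1 and Megf11 fell, with differences of -0.97 to -0.72. The falls of Mfap4, Tmc7, Bean1, Mast4, Galnt13, Edem1, Msantd4, Clstn2, Nwd2, Btbd3 and Pag1 had differences of -0.62 to -0.36 and were reversed by the centring. The values of Galnt13 overlapped between the groups.

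Other rises were those of Pex5l, an HCN channel partner (0.79, SE 0.22), the lipoprotein receptor Lrp1b (0.60, SE 0.18) and Smug1, a DNA glycosylase (0.47, SE 0.19). Smug1 lost its call without any 1 of 5 libraries. Of 7 predicted or unnamed genes, Gm3896, Gm13415, Gm7120 (Tmem267 in newer annotation) and Gm10287 rose by 0.62 to 0.84. The gene 2900026A02Rik read 61.6, 78.1 and 93.2 in the controls against 27.9, 17.6 and 36.8 in the mutants and fell by 1.53 (SE 0.29). Gm13404 read 36.2, 53.6 and 78.6 in the controls against 21.8, 18.7 and 19.4 in the mutants and fell by 1.40 (SE 0.27). Gm10801 read 25.4, 104.4 and 92.1 in the controls against 27.0, 19.8 and 25.5 in the mutants. It fell by 1.37 (SE 0.51), but control A lay below the highest mutant value, and its call was lost without any 1 of 5 libraries.

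The 7 genes that limma did not call were Jak1 (-0.33, SE 0.14), Rapgef6 (-0.32, SE 0.14), Tsc22d2 (-0.30, SE 0.14), Arhgap5 (-0.30, SE 0.14), Ebf1, Syt1 and Fat1. Their limma adjusted p ran from 0.0571 to 0.081, and each had an adjusted p under 0.05 in the authors' deposited table. The 5 negative differences turned positive under the centring, while Syt1 and Fat1 then passed. With a trend with intensity in the fit, limma called all 130 genes, these 7 among them, so their lack of a call depends on the setting.

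Of the 123 calls, 91 held without each library in turn and 32 were lost without at least 1, of which 31 had an absolute difference under 1. Without mutant A alone the call was also lost for Lrp1b (0.57), Mfap4 (-0.58), Pcdh19 (0.41) and Rab3ip (-0.43). Without mutant B alone the call was also lost for Edem1 (-0.45), Gm7120 (0.54) and Klf11 (-0.41). The calls of Btbd3 (-0.46 to -0.34), Cadm1 (-0.43 to -0.27), Gm10801 (-1.46 to -1.0), Pag1 (-0.39 to -0.31), Smug1 (0.32 to 0.56) and Tead1 (-0.56 to -0.41) were lost without any 1 of 5 or 6 libraries, with the range of their differences in parentheses. Those of Cit (-0.62 to -0.48), Clstn2 (-0.42 to -0.36), Cntn2 (-0.39 to -0.37), Galnt13 (-0.46 to -0.36), Mast4 (-0.49 to -0.40), Msantd4 (-0.43 to -0.34), Msn (-0.53 to -0.49), Nes (-0.48 to -0.34), Nwd2 (-0.44 to -0.32) and Scg2 (-0.61 to -0.37) were lost without any 1 of 3 or 4 libraries, and those of Kcnb2 (-0.46 to -0.42) and Trhde (-0.38 to -0.35) without either of 2.

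**Figure D3:**
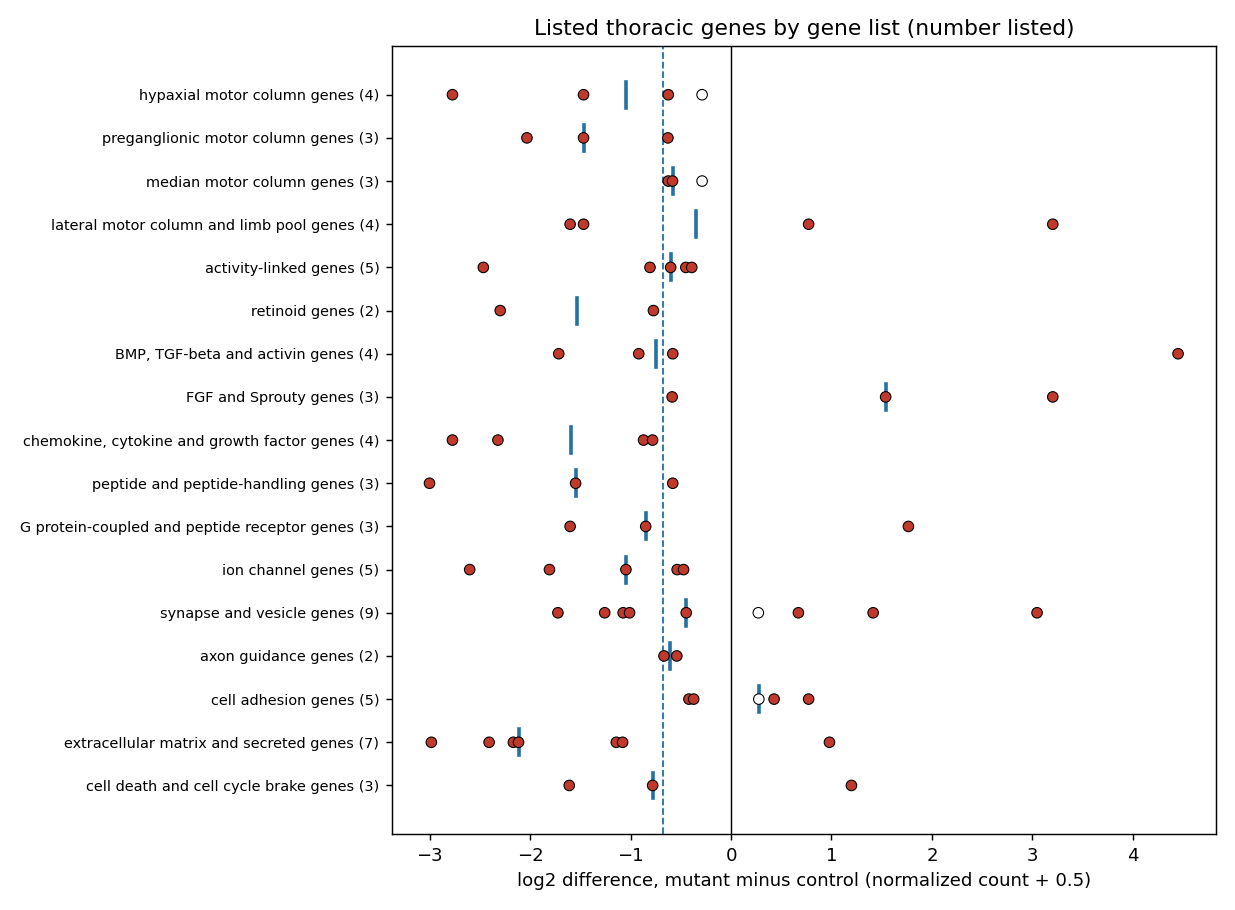
Log2 differences (mutant minus control, normalized count + 0.5) of listed thoracic genes by gene list, with filled points for genes that passed limma, short bars for list medians and a dashed line for the median of all 130 genes (-0.67). BMP, limb pool, FGF, peptide receptor, synapse, adhesion, extracellular matrix and cell death lists hold points on both sides of 0. The points between the dashed line and 0 turn positive when libraries are centred on the median of the list.

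By size, 16 genes differed by more than 2 on the log2 scale, 12 lower and 4 higher. Another 32 were lower and 6 higher by 1 to 2, and 37 were lower and 12 higher by 0.5 to 1. The median coefficient of variation over genes was 0.148 within controls and 0.149 within mutants.

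The brachial mutant table, from other libraries and separately normalized, lists 62 genes, of which limma called 61 (98.4%), and it shares 30 with the thoracic table. That is 23.1% of the thoracic and 48.4% of the brachial list. The deposited p-values imply 16235 genes tested at the thoracic and 11847 at the brachial level, so the lists had unlike backgrounds. The brachial list also holds Arhgap36 at an adjusted p of 0.0908 in the authors' deposited table. Of the 12 thoracic falls over 2 on the log2 scale, Creb5 and Cyp26b1 were in the brachial table, and of the 4 rises over 2 none was. Values of unlisted genes at the brachial level were not analysed here, so absence from that list does not show that a gene kept its level.

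Each of the 30 shared genes had the same sign at both levels. Both tables list genes that the authors selected for a change, so genes changed at a single level are not covered by these 30. The agreement in sign and the interaction below therefore hold only for genes listed at both levels and are no independent evidence of a like effect. Hrk differed by -1.61 (SE 0.23) at the thoracic and -1.97 (SE 0.21) at the brachial level. Kcnip4 differed by -1.81 (SE 0.23) at the thoracic and -1.31 (SE 0.28) at the brachial level. For H19 the values were -1.24 (SE 0.25) at the thoracic and -1.76 (SE 0.13) at the brachial level, and for Cdkn1a they were 1.20 (SE 0.29) at the thoracic and 1.04 (SE 0.16) at the brachial level. Pbx3 was lower in both tables, with differences of -0.59 (SE 0.16) at the thoracic and -0.65 (SE 0.15) at the brachial level. The column genes Zeb2, Ebf2 and Mecom were also shared and lower in both tables. Their differences in this order were -0.63, -0.62 and -0.58 at the thoracic and -0.41, -0.88 and -0.82 at the brachial level. The limma interaction of genotype and level called 0 of the 30, a share of 0%, and 0 had an unadjusted p under 0.05. The 95% interval of the difference between levels reached 0.55 to either side in the median and 1.34 at most, so differences inside it were not detectable.

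**Figure D4:**
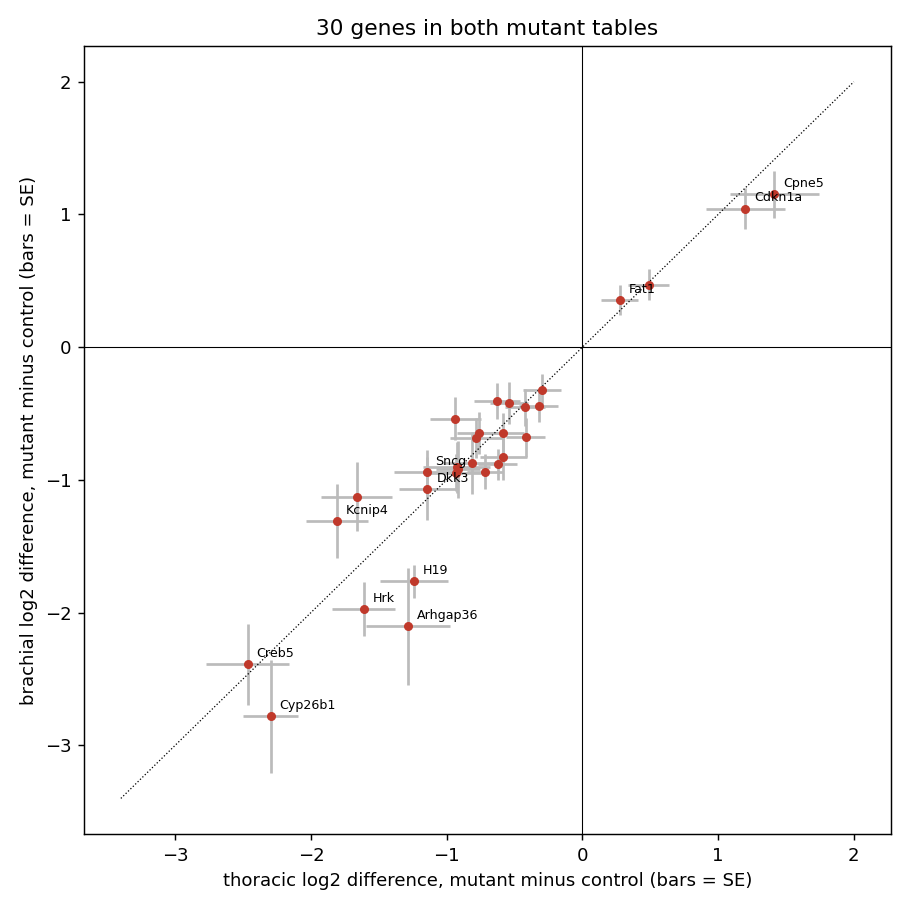
Log2 differences (mutant minus control) of the 30 genes in both mutant tables, thoracic on the horizontal and brachial on the vertical axis, with SE bars and a dotted line of equality. All points lie in the lower left or upper right quadrant, from Creb5 and Cyp26b1 to Cpne5; thoracic falls smaller than the median of the list turn positive with the median centring.

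The 100 genes absent from the brachial table comprised 77 with a lower and 23 with a higher mutant level. They included the column genes Nos1, Kitl, Etv1 and Etv4, the peptide genes Mme, Cartpt and Scg2, the ligands Bmp4 and Bmp7, Spry2, Spry4, Cxcl12 and Met, and the activity-linked genes Nr4a3, Egr1, Jun and Klf6. Their median difference was -0.62, against -0.77 for the 30 shared genes.

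The authors compared the control levels in a further table that uses the same thoracic control libraries, so its values are set beside those above without a count of agreement. There, Nos1 had means of 97.0 ± 13.6 for brachial and 476.7 ± 78.5 for thoracic controls (SD, n = 3). Kitl had means of 58.7 ± 13.2 for brachial and 660.6 ± 351.9 for thoracic controls, and Mme of 20.6 ± 3.56 for brachial and 163.4 ± 43.8 for thoracic controls. Etv4, which rose in the thoracic mutant, had means of 34.4 ± 13.8 for brachial and 4.49 ± 3.13 for thoracic controls. Npr3 and Etv1, the limb pool names that fell in the mutant, were higher in thoracic than in brachial controls. Npr3 had means of 19.5 ± 10.1 for brachial and 55.2 ± 14.0 for thoracic controls. Those of Etv1 were 51.3 ± 7.63 for brachial and 107.7 ± 22.4 for thoracic controls. Cdh12 was not listed there. The tables were scaled separately, and levels across them are not compared.

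Reads of overlapping genes cannot be assigned without knowing whether counting used strand, which the sources used here do not state. In GENCODE M21, 35 of the 130 genes share at least 50 exon bases with another annotated gene, among them Bmp4, Nos1, Creb5, Adamts9, Muc4, Kcnip4, Cpne5, Ramp3, Npr3 and Cdkn1a, and these counts are uncertain to that extent.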

How the data were processed

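RNA of 6 thoracic libraries, 3 per genotype, was analysed. The submitters' processing notes name DESeq2 (1.12.3), HTSeq (0.6.1p1), Bowtie (1.0.0) and Picard (1.88) as tools, with NCBIM37 and mm9 as builds; settings are not stated. Per the labels' protocols, cDNA was amplified, so reads are not independent molecules. The deposited normalized counts are a signal: gene counts that the authors divided by 1 factor per library, whole multiples of 1 step within 1e-06. Sheet names call them CPM, and the log-scale test planned for CPM was kept. The authors also deposited log2 fold changes, test scores and p-values, used only where named.

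Values were fitted as log2(value + 0.5) with limma 3.58.1 in R 4.3.3, two-sided and without a filter, with Benjamini-Hochberg adjustment over the 130 genes and a threshold of 0.05; the fit was tested on simulated data. The interaction used 12 libraries of 2 separately normalized tables. Members, gene lists and settings were chosen with earlier results of these data known. Library values are given for Pbx3, the 10 largest differences in each direction and the 3 largest of each list, apart from a few genes that are counted but not reported here; further genes with library values, and the stretches with TGATNNAT, were chosen after their values were seen. All 130 gene identifiers matched the reference names, 4 under another symbol. Near-identical transcripts were searched with blastn 2.17.0 (at least 98% identity over 200 bases). Alternatives are given in the closing section.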

Additional observations from a re-analysis of the deposited data

How the results depend on the processing

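Taking pseudocounts of 0.1 and 2, a minimum mean of 10, a trend with intensity, or the adjusted p of the authors' deposited table at 0.05 or 0.01 changed no direction and kept the count of called genes within 1.5 times. With the letters as a replicate block, 118 thoracic genes passed, and Gm10801, Cit, Tead1, Nwd2 and Smug1 lost their call. Deviations of same-letter libraries from their group means had correlations of -0.03, 0.31 and -0.13. Those of thoracic libraries with different letters ran from -0.28 to 0.26. With 3 libraries per group these correlations cannot show whether the letters pair the libraries. Leaving out 1 library at a time gave 100 to 114 thoracic calls and 40 to 58 brachial ones, the fewest without brachial control B. The interaction called 0 genes under each pseudocount, the block and each left-out library. Centring on the median listed gene left 52 calls, 27 higher and 25 lower, and 39 falls kept their sign without their call. The share of calls that were lower was 48.1%, against 79.7%, a move that the centring brings by its construction. Under this centring the difference turned positive, at 0.04 for Cit, 0.05 for Ntng1, 0.09 for Zeb2, Ebf2, Mfap4, 0.10 for Tmc7, 0.11 for Egr1, Msn, 0.12 for Bean1, 0.13 for Spry2, Pbx3, Mecom, Tgfb2, Scg2, 0.17 for Unc5c and 0.18 for Cacna2d1, Tead1. It became 0.21 for Mast4, 0.24 for Kcnb2, Klf11, Galnt13, 0.25 for Nes, Edem1, 0.26 for Jun, 0.27 for Rab3ip, 0.28 for Msantd4, 0.29 for Clstn2, 0.30 for Cntn2, Nwd2, Btbd3 and 0.32 for Klf6. It became 0.33 for Trhde, 0.34 for Cadm1, 0.36 for Pag1, 0.39 for Jak1, Rapgef6, 0.41 for Tsc22d2, 0.42 for Arhgap5 and 0.43 for Ebf1. Depth limits Bmp4, Stx11 and Muc4, with 4 reads in a group if 1 step is 1 read. The planned edgeR and DESeq2 tests on recovered reads were not run, because too few low values were listed to establish that 1 step is 1 read.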
